A study of Mus musculus with 2 samples.

Results

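The 31 genes described here are Trp53, 14 genes chosen as p53 targets and 16 genes chosen as core death machinery, followed through the cells of the mouse eye cup at birth (P0). They were taken by symbol from the 31053 genes of the deposited count matrices, and each symbol matched 1 row. Both groups were sequenced as single cells on the 10x Genomics 3′ platform, with 1 library per genotype made from 3 pooled eye cups after removal of the lens, cornea and optic nerve. Lens-like cells nevertheless numbered 242 in the control and 1 in the mutant. The control group was Myrf fl/fl, which carries the floxed Myrf allele on both chromosomes, and the mutant group was Rx>cre Myrf fl/fl, the same floxed alleles with a cre transgene active in the early eye field, the tissue that gives rise to both the neural retina and the retinal pigment epithelium (RPE). The product of Myrf is a transcription factor anchored in a membrane, and the question posed by the comparison was what its loss does to the RPE and to its neighbours.

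With 1 library per genotype there was no biological replicate, so no test between genotypes was made, every difference is one between these 2 libraries, and the 95% intervals given throughout cover counting error only. After filtering, 12494 control and 10832 mutant cells remained, with medians of 4270.5 and 4820.5 unique molecular identifiers (UMIs, counts of single transcripts) per cell. The libraries shared 46 barcodes among these cells. Clusters were named from marker genes, and 7 named classes had at least 100 cells in each library. The libraries also differed in sex-linked transcripts. Among retinal progenitor-like cells, 53 control and 2408 mutant cells held Xist and no Y-linked UMI, while 1580 control and 467 mutant cells held a Y-linked UMI and no Xist, so genotype and sex composition cannot be told apart when whole classes are compared. Values within each kind of cell are given for some of the genes.

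The transcription factor p53 is held at a low level by the ubiquitin ligase Mdm2, and DNA damage or other stress releases it to switch on genes that halt the cell cycle (Cdkn1a), feed back on p53 itself (Mdm2, Ccng1) or promote cell death (Bax, Bbc3, Pmaip1, Perp, Fas). The core death machinery lies downstream and is built from the Bcl2 family, whose pro-survival and pro-death members decide whether cytochrome c leaves the mitochondria, and from the caspases and their inhibitors. Much of this machinery is controlled through protein modification and binding rather than through the amount of its mRNA, whereas p53 targets are known as transcriptional readouts.

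The promoters of several of the p53 targets carry the letters to which a p53 dimer binds, and these are shown because the sequence is a property of the targets that does not depend on the counts. RefSeq promoter windows (GRCm38.p6, 250 bases before to 50 bases after each annotated start) were found for 26 of the 31 genes and were searched on both strands for the p53 half-site consensus, a palindrome of 10 letters. A match was present for 5 of the 10 p53 targets that had a window (50%), for 1 of the 15 core death genes (6.67%), and for 2582 of 27025 genes overall (9.55%). The only death gene with a match was Birc2, and Trp53 itself held 1. Trp53inp1, Zmat3, Perp and Bnip3l are among the genes not matched to a window. Sequences are given 5′ to 3′ on the strand of the gene, with the half-site in capitals.
Cdkn1a, chr17:29090896-29090947, plus strand: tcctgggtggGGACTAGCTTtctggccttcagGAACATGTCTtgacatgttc
Mdm2, chr10:117710925-117710954, minus strand: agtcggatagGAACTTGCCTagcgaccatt
Bax, chr7:45467080-45467109, minus strand: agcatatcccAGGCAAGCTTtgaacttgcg
Ccng1, chr11:40755452-40755481, minus strand: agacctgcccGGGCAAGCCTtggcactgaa
Aen, chr7:78895927-78895956, plus strand: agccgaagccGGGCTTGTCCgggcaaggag
Trp53, chr11:69580274-69580303, plus strand: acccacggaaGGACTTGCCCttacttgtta
Cdkn1a alone had a window with 2 half-sites, which begin 73 and 51 bases before that annotated start. The window of another annotated Cdkn1a start, chr17:29093519-29093818, held 0. The half-sites of the other genes shown begin 186 bases (Mdm2), 201 bases (Bax), 185 bases (Ccng1), 121 bases (Aen) and 75 bases (Trp53) before an annotated start. A match describes these letters and is not evidence of binding.

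Myrf itself was examined first, as the targeted gene. In RPE-like cells it was counted at 745 UMIs (control) and 63 UMIs (mutant), or 231 and 27.8 CPM (UMIs of a gene scaled to a common total of UMIs in the class), a log2 ratio of −3.01 (−3.45 to −2.68). Every log2 ratio divides mutant by control after adding 1 CPM to both. The RPE-like class held 488 control and 189 mutant cells and carried 9 of the 10 RPE markers used to name it, among them Rlbp1, Tyrp1 and Ttr. These markers themselves differed between the libraries, with all 10 together at 29383 CPM (control) and 20303 CPM (mutant), Ttr at 4951 and 1159 CPM and Rlbp1 at 816 and 345 CPM, while Sfrp2, a marker of progenitors, stood at 368 and 663 CPM. Their part in the values of the members was not tested. The depth of the class differed between genotypes, with median UMIs per cell of 2507 (control) and 10635 (mutant), whereas the 2693 control and 3278 mutant retinal progenitor-like cells were alike in depth (4905 and 4980.5). The part of this depth gap in any RPE result was not tested, and values from cells thinned to equal depth are given for some of the genes.

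In RPE-like cells 7 of the 8 p53 targets with enough counts were higher in the mutant library, Perp and Cdkn1a the most, while the core death genes were spread about 0. Of the 14 targets, 8 reached 50 UMIs over both libraries. Their median log2 ratio was 0.37, against −0.01 over the 8867 genes measured in the same cells. The 2 targets past 1.5-fold, Perp and Cdkn1a, were both higher, where 5.88% of all genes were past that fold upward and 16.4% in either direction. Of the 16 death genes, 14 reached 50 UMIs. Their median was 0.07, with 9 higher and 5 lower, and 1 of them, Casp8, was past 1.5-fold. The counting interval lay above 0 for 5 of the 8 targets and 1 of the 14 death genes, as for 14.2% of all genes, and below 0 for 0 targets and 2 death genes, as for 15.5% of all genes. Of the 7 targets that were higher, 5 (Cdkn1a, Ccng1, Aen, Phlda3 and Zmat3) turned their sign under at least 1 alternative, and Perp and Bax did not. Summed over each whole list, the targets stood at 391 CPM (control) and 504 CPM (mutant), and the death genes at 996 and 1032 CPM. Within the target sum Perp made up 22.6 and 75.9 CPM and Bax 220 and 246 CPM, so the sum does not describe each target.

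**Figure D1:**
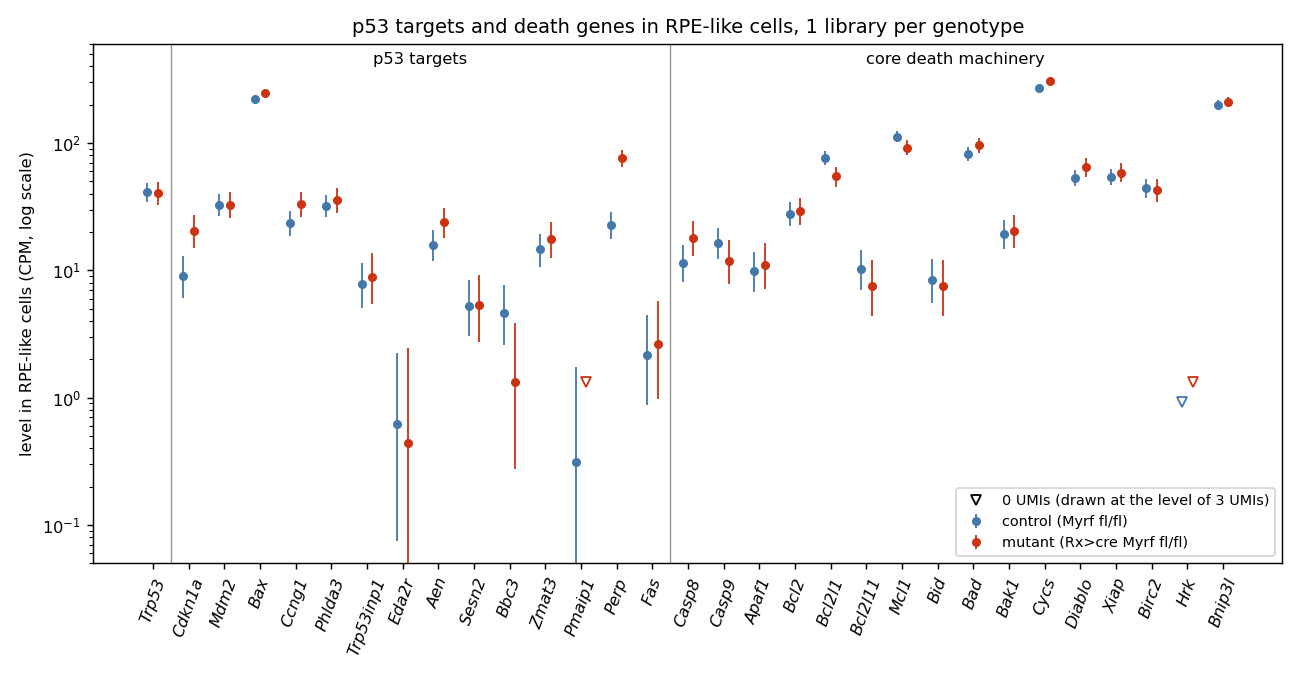
Level of each gene in RPE-like cells in CPM on a log axis, with 1 point per library (blue, control; red, mutant) and its exact Poisson 95% interval; open triangles mark genes with 0 UMIs, drawn at the level of 3 UMIs. Perp, at 22.6 CPM (control) and 75.9 CPM (mutant), is the gene whose points stand farthest apart among those with narrow intervals.

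Perp, a tetraspan membrane protein of desmosomes that also takes part in p53-dependent death, showed the clearest difference. RPE-like cells held 73 Perp UMIs (control) and 172 UMIs (mutant), which is 22.6 CPM (17.7 to 28.5) and 75.9 CPM (65.0 to 88.1). The log2 ratio was 1.70 (1.34 to 2.16). The difference was spread over many cells, since 50 of 488 control cells and 66 of 189 mutant cells held a Perp UMI and no cell held more than 10. At equal depth, with each cell thinned to 1000 UMIs and shallower cells left out, 8 of 387 control cells (2.07%, exact Clopper-Pearson interval 0.90 to 4.03%) and 15 of 165 mutant cells (9.09%, 5.18 to 14.6%) held Perp, against 10.2% and 34.9% before thinning. In progenitor-like cells thinned in the same way, a class not known for Perp, 0.186% of control and 0.0610% of mutant cells held it.

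The Perp ratio in RPE-like cells stayed above 0 in every alternative that gave a value, from 1.26 to 2.08. Among RPE-like cells that held Xist but no Y-linked UMI the ratio was 1.40, and among those with a Y-linked UMI and no Xist it was 1.69. Perp is also abundant in stratified epithelium, and markers of the surface epithelium were counted in the same cells. All 7 markers together stood at 315 CPM (control) and 449 CPM (mutant), of which Krt8, a keratin of simple epithelia, made up 287 and 440 CPM. The other 6 (Krt5, Krt14, Krt15, Krt19, Epcam and Trp63) summed to 92 UMIs in the control (28.5 CPM) and 20 in the mutant (8.82 CPM), with Trp63 at 0 and 1 UMI. The full list was thus higher in the mutant and the list without Krt8 lower. Leaving out each cell with a UMI of any of the 6, an alternative and a choice of markers made after seeing the data, gave a Perp ratio of 1.98. The part of surface epithelium RNA in the Perp values was not tested.

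Cdkn1a, which encodes the cyclin-dependent kinase inhibitor p21, was counted in RPE-like cells at 29 UMIs (control) and 46 UMIs (mutant). These are 8.99 CPM (6.02 to 12.9) and 20.3 CPM (14.9 to 27.1), a log2 ratio of 1.09 (0.47 to 1.90). This difference rested on few cells, as 20 of 488 control cells and 13 of 189 mutant cells held the transcript and 1 mutant cell alone held 12 UMIs. The Cdkn1a ratio in RPE-like cells also turned with the cells chosen. RPE-like cells that held Xist but no Y-linked UMI numbered 80 in the control and 75 in the mutant, those with a Y-linked UMI and no Xist 127 and 34, and 260 and 76 held neither. The ratio was −0.43 among the first, on 19 Cdkn1a UMIs, 2.26 among the second, on 44 UMIs, and 3.17 among cells of 4000 to 16000 UMIs. After thinning to 1000 UMIs, 1.81% of control and 2.42% of mutant cells held Cdkn1a, with intervals of 0.73 to 3.69% and 0.66 to 6.09%, so no difference in the share of Cdkn1a-bearing RPE cells was detectable at this depth.

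**Figure D2:**
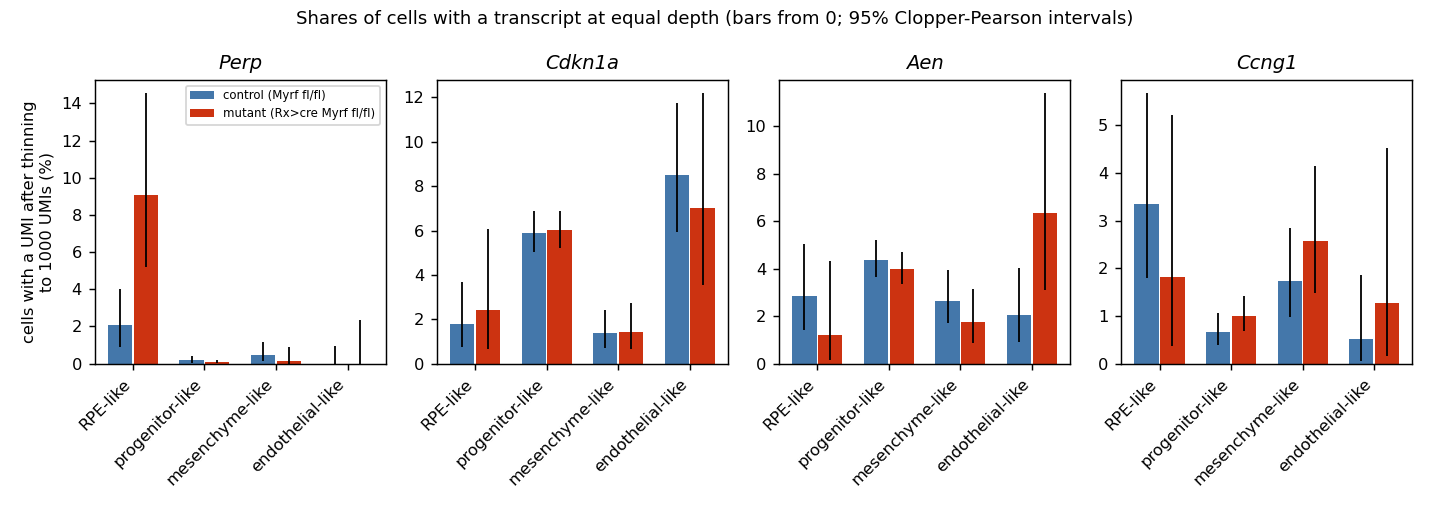
Share of cells with at least 1 UMI of Perp, Cdkn1a, Aen and Ccng1 after each cell was thinned to 1000 UMIs, in percent, for 4 classes; bars start at 0, blue is control and red is mutant, and lines are exact 95% Clopper-Pearson intervals. The Perp bars of RPE-like cells (2.07% and 9.09%) are the only RPE pair here whose intervals do not overlap.

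Trp53 and Mdm2 lay close together in the 2 libraries when all RPE-like cells were summed, but not in each kind of cell. Trp53 stood at 133 and 91 UMIs, 41.2 CPM (control) and 40.2 CPM (mutant), a log2 ratio of −0.04 (−0.44 to 0.36). Mdm2, the ligase that p53 induces and that removes it, stood at 106 and 74 UMIs, 32.9 and 32.6 CPM, a ratio of −0.01 (−0.46 to 0.43). Over all RPE-like cells neither the p53 gene nor its feedback ligase differed beyond counting error. The Trp53 ratio in RPE-like cells was 0.52 among those that held Xist but no Y-linked UMI and −0.58 among those with a Y-linked UMI and no Xist, the ends of its range. The Mdm2 ratio in RPE-like cells ran from −0.57, with a mitochondrial limit of 5%, to 0.70, among the Xist cells. The share of cells with Mdm2 was 4.65% (control) and 4.85% (mutant) after thinning to 1000 UMIs, and 7.19% and 3.38% at 2000 UMIs.

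Bax, the pore-forming effector of mitochondrial death, stood at 709 UMIs (control) and 558 UMIs (mutant), 220 and 246 CPM, a ratio of 0.16 (0.00 to 0.33). Ccng1, cyclin G1, stood at 76 and 75 UMIs, 23.6 and 33.1 CPM, a ratio of 0.47 (0.01 to 0.97). Both were somewhat higher in the mutant with an interval that began at or just above 0, and for Ccng1 thinning to 1000 UMIs turned the ratio to −0.85 on 16 UMIs. The Bax ratio in RPE-like cells ran from 0.06 to 0.64 over its 17 alternatives and was past 1.5-fold on thinned cells. Aen, a nuclease named for enhancing apoptosis and described after its values were seen, had 51 and 54 UMIs and a ratio of 0.56 (0.01 to 1.17) that became −1.17 on 13 thinned UMIs.

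Of the other targets, Phlda3, which restrains Akt, and Zmat3, an RNA-binding zinc finger protein, had ratios of 0.16 and 0.26 with intervals that crossed 0. The Phlda3 ratio in RPE-like cells kept its sign in 13 of 17 alternatives and ran from −0.96, with a mitochondrial limit of 5%, to 1.33, in cells of 4000 to 16000 UMIs. After thinning to 1000 UMIs, 4.65% of control and 3.64% of mutant cells held Phlda3. The Zmat3 ratio in RPE-like cells ran down to −0.30, among cells with a Y-linked UMI and no Xist. The 6 targets under 50 UMIs were Trp53inp1 (25 control and 20 mutant UMIs), Sesn2 (17 and 12), Bbc3 (15 and 3), Fas (7 and 6), Eda2r (2 and 1) and Pmaip1 (1 and 0). Bbc3 and Pmaip1 encode Puma and Noxa, BH3-only proteins through which p53 is best known to kill cells. Bbc3 had fewer UMIs in the mutant, at 4.65 CPM (control) and 1.32 CPM (mutant), with a ratio of −1.28 and an interval (−4.24 to 0.01) that reached 0. The 1 Pmaip1 UMI and the 0 found in the mutant, where 3 UMIs would be 1.32 CPM, give no comparison.

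Bcl2l1 and Mcl1, both pro-survival, are the 2 of 14 core death genes with intervals below 0 in RPE-like cells. They were picked after their values were seen, and their number is near the background, as 15.5% of all genes had such an interval. Bcl2l1, encoding Bcl-xL, stood at 245 UMIs (control) and 124 UMIs (mutant), 76.0 CPM (66.8 to 86.1) and 54.7 CPM (45.5 to 65.2), a ratio of −0.47 (−0.80 to −0.16). It was lower in the mutant in each of its 16 alternatives, from −0.67 to −0.21. Mcl1 stood at 362 and 209 UMIs, 112 and 92.2 CPM, a ratio of −0.28 (−0.54 to −0.03), and was lower in each of 17 alternatives, from −0.79, on thinned cells, to −0.07. Bcl2, the third pro-survival member, stood at 0.06 (−0.42 to 0.54). None of these reached 1.5-fold over all RPE-like cells, though Bcl2l1 and Mcl1 passed it at the low ends of their ranges.

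Casp8, the initiator caspase of death receptors, was the single death gene past 1.5-fold, with 37 and 41 UMIs and a ratio of 0.61 (−0.02 to 1.34). The Casp8 ratio in RPE-like cells turned to −0.72 on 10 thinned UMIs and rose to 1.59 in cells of 4000 to 16000 UMIs. Casp9 and Apaf1, which with cytochrome c form the apoptosome, stood at −0.43 (−1.19 to 0.23) and 0.14 (−0.66 to 0.95). Cycs, encoding cytochrome c, was counted deeply, at 873 and 697 UMIs, and stood at 0.18 (0.04 to 0.33), but at −0.02 among cells that held Xist but no Y-linked UMI. The BH3-only genes Bcl2l11 and Bad stood at −0.40 and 0.22, the effector Bak1 at 0.07, and the caspase inhibitors Xiap and Birc2 with their antagonist Diablo at 0.11, −0.04 and 0.27, all with intervals that crossed 0. Of these, Apaf1, Bcl2l11, Bak1, Xiap and Birc2, and Bcl2 above, turned their sign under at least 1 alternative, Birc2 between −0.85 and 0.51. Bid (27 and 17 UMIs) and Hrk (0 in both, where 3 UMIs would be 0.930 CPM (control) and 1.32 CPM (mutant)) were under 50 UMIs.

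Cells holding several p53 targets at once were counted after thinning to 2000 UMIs. At least 3 of the 14 targets were found in 5 of 278 control RPE-like cells (1.80%, 0.59 to 4.15%) and in 9 of 148 mutant cells (6.08%, 2.82 to 11.2%), so the intervals overlapped. In progenitor-like cells the shares were 1.77% and 1.98%. For the death machinery the shares of RPE-like cells with at least 3 genes were 22.3% and 23.6%. At 1000 UMIs the shares were 0.517% and 1.21% for the targets, and 12 of 387 control and 10 of 165 mutant cells held at least 3 death genes, with overlapping intervals for both lists, so how the lists compare depends on the depth chosen. The larger share for p53 targets includes Perp and so does not stand apart from the Perp difference.

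A wider list of 22 other p53 targets was mixed in RPE-like cells. Of its 13 genes with at least 50 UMIs, 3 were past 1.5-fold upward and 3 downward (5.88% and 10.5% of all genes), with a median of 0.10. Ddit4l, an inhibitor of mTOR signalling, was higher, with 23 and 68 UMIs (log2 ratio 1.93, 1.37 to 2.82), as was Tnfaip8 (1.04, 0.62 to 1.53). Sesn1, a stress-induced sestrin, was lower, at 27.6 and 10.6 CPM (−1.30, −2.10 to −0.72), as were the thiamine transporter Slc19a2 (−1.28) and Ddit4 (−0.87). Of 12 regulators of p53, 7 reached 50 UMIs and 0 were past 1.5-fold. Of 26 other death genes, 18 reached 50 UMIs and 1 was past it, Bnip3 (0.74, 0.34 to 1.18), which is also a gene of the hypoxia response.

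Stress lists that could move with these genes were counted beside them. The hypoxia response, 12 of 14 genes measured, had a median of 0.35 in RPE-like cells, with Pgk1 at 538 CPM (control) and 1080 CPM (mutant) and Ldha at 448 and 956 CPM. Immediate early and heat shock genes that tissue dissociation induces, all 12 measured, had a median of 0.40, with Junb (1.15) and Fosb (1.57) higher and Jund (−0.61) and Atf3 (−1.68) lower. Their part in the p53 target values was not tested. Barcodes removed for a high mitochondrial share held p53 target UMIs at 444 (control) and 338 (mutant) CPM of non-mitochondrial UMIs, against 459 and 448 in the cells kept.

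**Figure D3:**
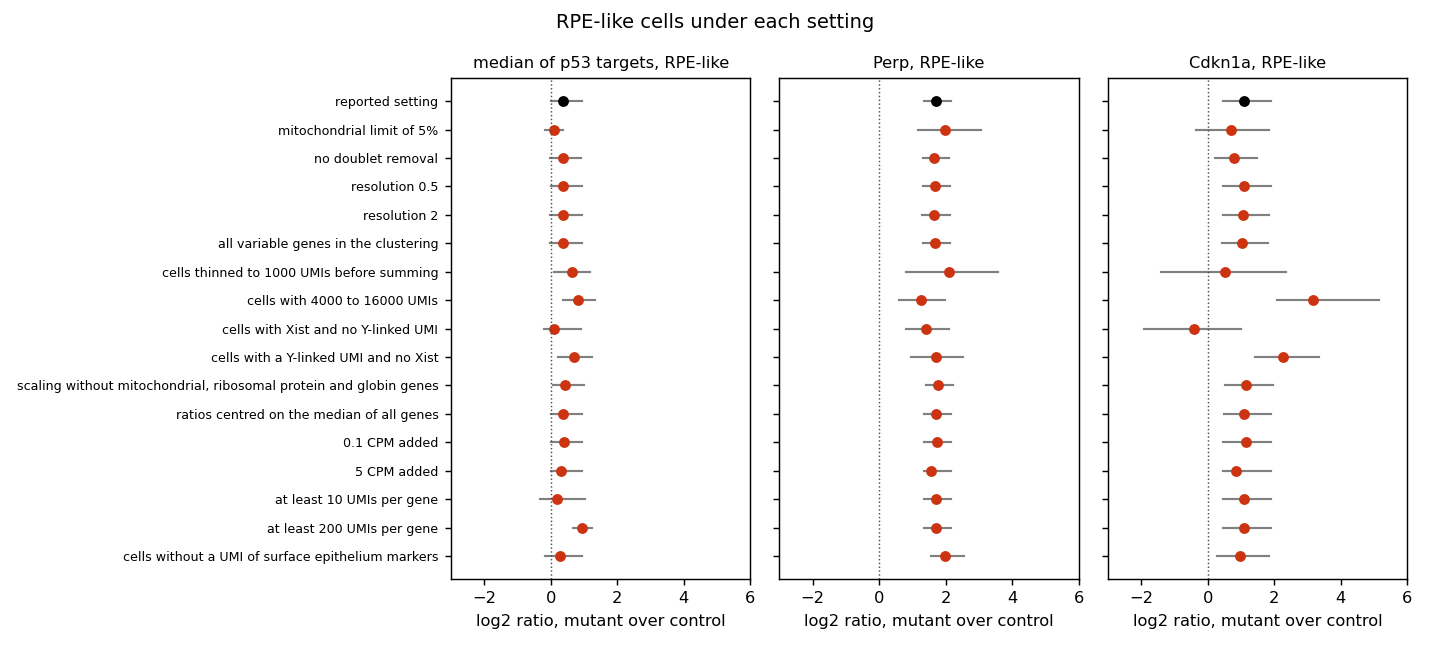
Log2 ratio of mutant over control in RPE-like cells under each processing setting, for the median of the p53 targets, Perp and Cdkn1a; points are values, black for the reported setting, and lines are 95% counting intervals (for the list, the median of its genes' bounds). Perp stays between 1.26 and 2.08, while Cdkn1a runs from −0.43 to 3.17.

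Retinal progenitor-like cells, which derive from the same Rx-expressing field and were deep and alike in both libraries, showed no p53 target past 1.5-fold. Of the 14 targets, 10 reached 50 UMIs, with a median of 0.16 against 0.05 over 11956 genes, of which 3.29% were past 1.5-fold in either direction. Of the 16 death genes, 15 reached 50 UMIs, with a median of 0.10 and 0 past 1.5-fold. Cdkn1a stood at 849 and 1059 UMIs, 60.7 CPM (56.7 to 64.9) in control and 60.4 CPM (56.9 to 64.2) in mutant cells, a ratio of −0.01 (−0.14 to 0.13). The interval was narrow at this depth, and a difference within it was not detectable. Trp53 (−0.01, −0.11 to 0.09) and Bax (−0.04, −0.12 to 0.04) were as close.

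The targets that stood highest in mutant progenitor-like cells, Zmat3 and Trp53inp1, both had a ratio of 0.39 (0.13 to 0.71 and 0.08 to 0.80). Mdm2 stood at 406 and 605 UMIs with a ratio of 0.24 (0.07 to 0.44), Ccng1 at 132 and 185 UMIs with 0.15 (−0.17 to 0.50), and Aen was lower, at −0.19 (−0.36 to −0.04). Several of these small differences turned with depth or with the sex-linked transcripts. On cells thinned to 1000 UMIs the Zmat3 ratio in Retinal progenitor-like cells was −0.089, the Mdm2 ratio in Retinal progenitor-like cells −0.12 and the Trp53inp1 ratio in Retinal progenitor-like cells 0.01. Among cells with a Y-linked UMI and no Xist the Mdm2 ratio was −0.16, and among the 53 control and 2408 mutant cells that held Xist but no Y-linked UMI the Trp53inp1 ratio was −0.43, the median of the targets was −0.18 and that of the death genes 0.40. In those Xist cells 2 of 9 targets and 5 of 15 death genes were past 1.5-fold, where 30.8% of all genes were, so these counts are near the background. In the cells with a Y-linked UMI 2 of 9 targets and 1 of 15 death genes were, where 8.69% of all genes were. Perp was almost absent from these cells, with 21 control and 18 mutant UMIs.

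Cycs was lower in mutant progenitor-like cells, at 222 CPM (control) and 193 CPM (mutant) (−0.20, −0.27 to −0.13), opposite in sign to its value in RPE-like cells. On the 19 Cycs UMIs of cells with at most 2000 UMIs the Cycs ratio in Retinal progenitor-like cells was 0.40. Bnip3l, a mitophagy receptor of the BH3 family that hypoxia induces, was higher, at 215 and 260 CPM (0.27, 0.21 to 0.34). It was higher in the mutant in all 7 classes compared, with ratios from 0.07 to 0.28, but among the progenitor-like cells that held Xist but no Y-linked UMI the Bnip3l ratio was −0.07. The hypoxia response list was also higher in mutant progenitor-like cells, with a median of 0.23 and Aldoa at 255 and 489 CPM, and its part in the Bnip3l values was not tested. Xiap, an X-linked gene, had a ratio of 0.14 (0.02 to 0.26) in the same cells, and the Xiap ratio in Retinal progenitor-like cells was −0.012 after thinning.

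**Figure D4:**
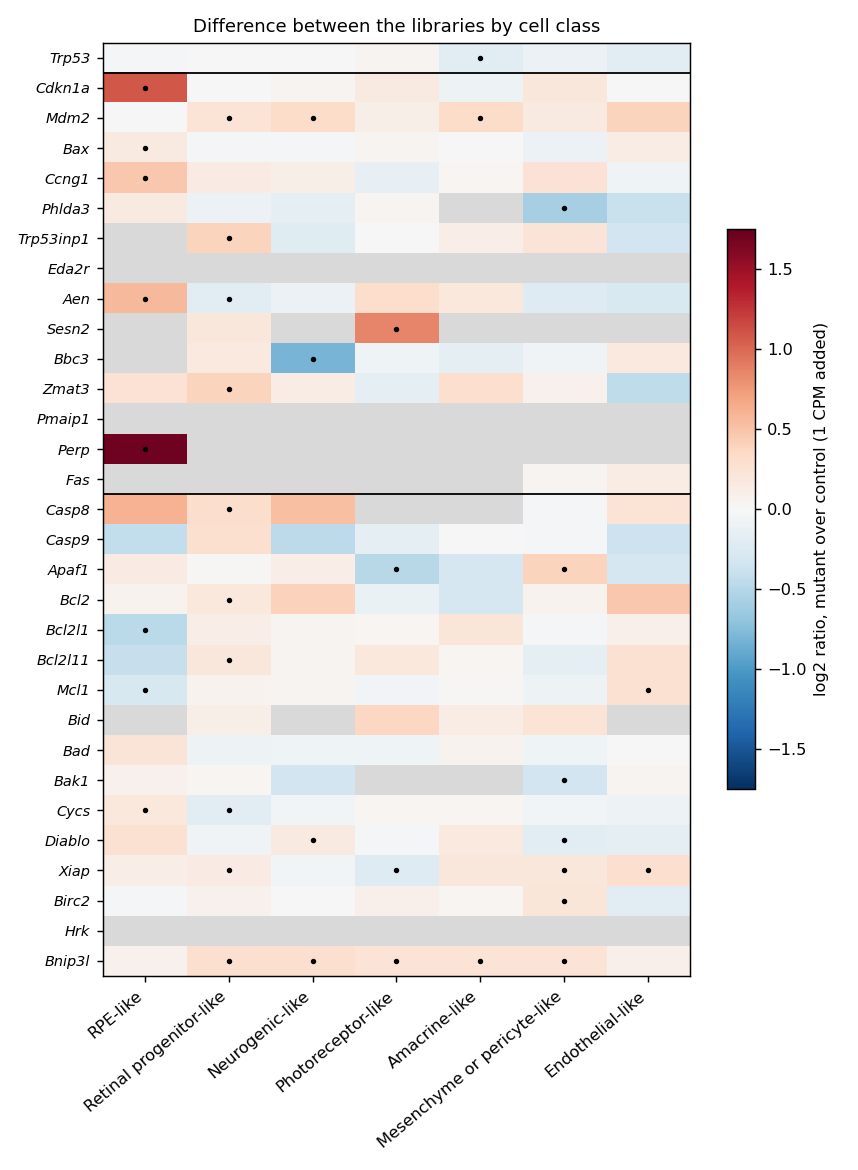
Log2 ratio of mutant over control for each gene (rows) in 7 classes (columns), red where higher in the mutant and blue where lower; grey marks fewer than 50 UMIs, dots mark counting intervals apart from 0, and black lines part Trp53, the p53 targets and the death genes. The strongest colours in the map are those of Perp (1.70) and Cdkn1a (1.09) in RPE-like cells.

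Over the 7 classes, 170 pairs of a gene and a class reached 50 UMIs, and 5 of these pairs were past 1.5-fold. Beside the 3 in RPE-like cells these were Bbc3 in neurogenic-like cells, at 8.82 CPM (control) and 4.57 CPM (mutant) (−0.82, −1.73 to −0.20), and Sesn2, a sestrin that restrains mTOR, in photoreceptor-like cells, at 4.53 and 8.98 CPM (0.85, 0.29 to 1.72). In those 2 classes 3.80% and 4.07% of all genes were past 1.5-fold, so 1 gene of a list in each is near the background. In amacrine-like, endothelial-like and mesenchyme or pericyte-like cells, where 4.42%, 7.54% and 3.25% of genes were, 0 members were past it. The target medians of the 5 further classes lay between −0.04 and 0.08, and the death gene medians between −0.03 and 0.07.

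Phlda3 in mesenchyme or pericyte-like cells came close to 1.5-fold without reaching it, at 1476 and 703 UMIs, 137 CPM (130 to 144) in control and 91.5 CPM (84.9 to 98.6) in mutant cells, a ratio of −0.58 (−0.71 to −0.45). It differed between the 4 clusters of that class. A cluster led by Col10a1 and Alpl stood at 212 and 135 CPM of Phlda3 and one led by Acan and Tnc at 144 and 111 CPM, while one led by Lypd1 and Myh11 stood at 94.1 and 85.7 CPM and one led by Aldh3a1 and Kera at 35.1 and 37.9 CPM. The Col10a1 cluster held 334 of 864 control and 186 of 622 mutant cells of the class, and the Aldh3a1 cluster 158 and 156, so the class ratio mixes levels within clusters with these shares.

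Levels of the members varied widely between cell classes, and the classes in which each stood highest were mostly shared by the libraries. In 11 classes with at least 50 cells in each library, 19 of the 31 genes had their highest level in the same class in both libraries, 10 of the 14 targets and 9 of the 16 death genes. These orders describe 1 library each and the classes of a library share its depth and its pool of animals.

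**Figure D5:**
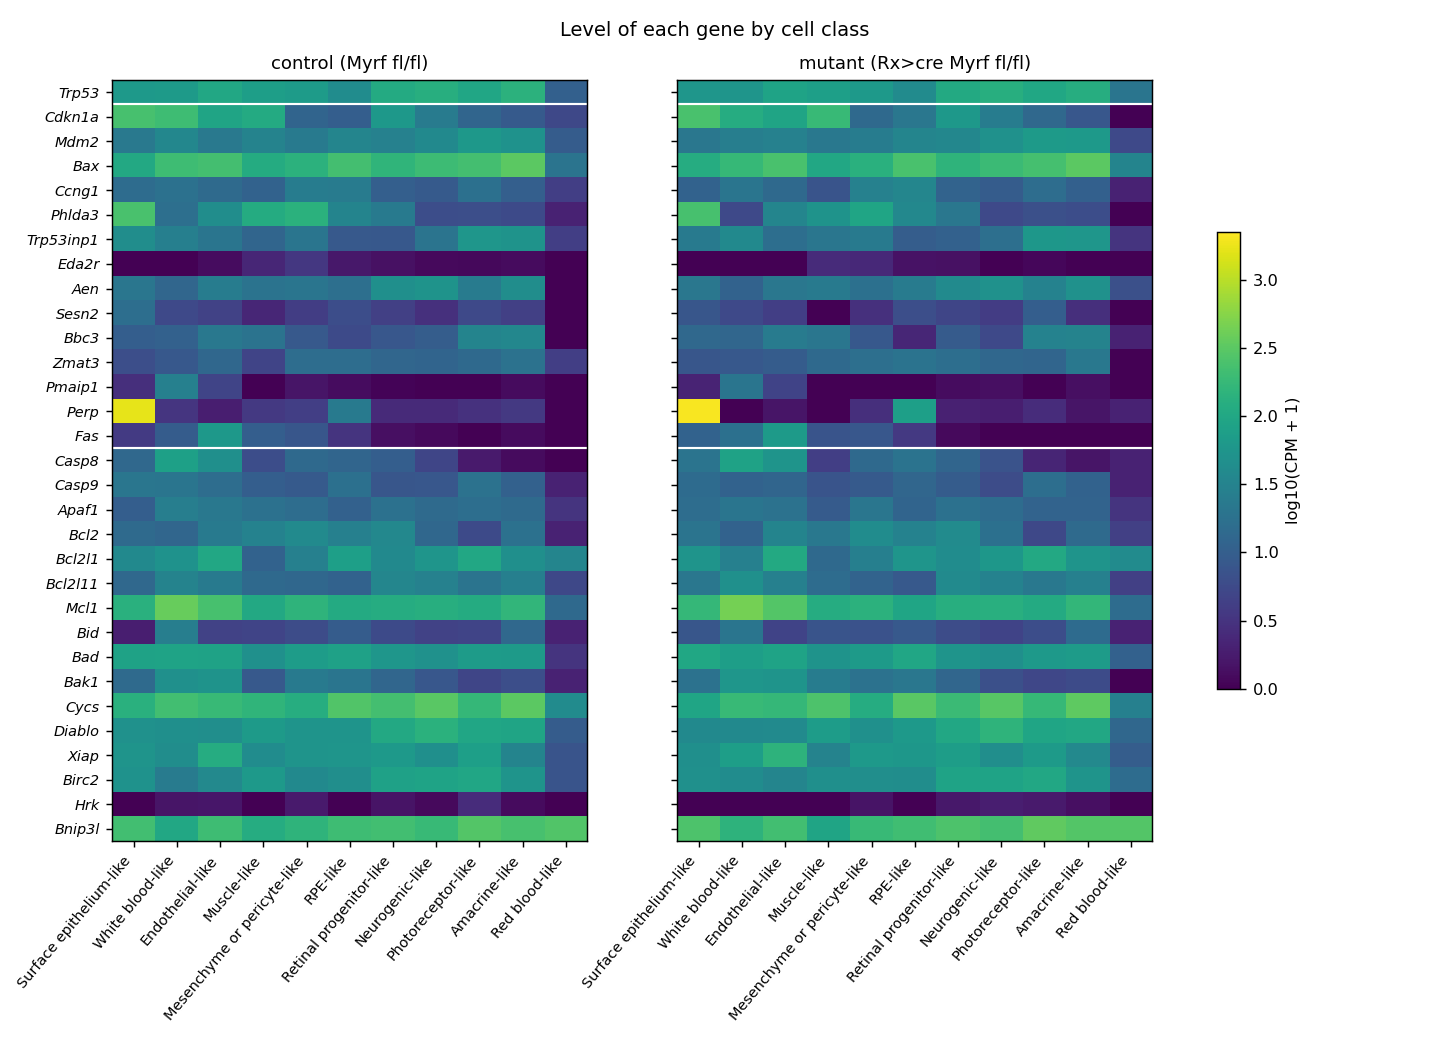
Level of each gene (rows) in 11 classes (columns) as log10 of CPM plus 1, control at left and mutant at right, with white lines that part Trp53, the p53 targets and the death genes. The brightest cell in each panel is Perp in surface epithelium-like cells, at 1702 CPM (control) and 2064 CPM (mutant).

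Trp53 was highest in amacrine-like cells (140 CPM control, 122 CPM mutant) and neurogenic-like cells (124 and 125 CPM), which did not differ beyond their intervals, followed by progenitor-like cells, and RPE-like cells were 10th of 11 in both libraries. Aen had the same 3 leading classes in both libraries, at 51.9 and 48.2 CPM in neurogenic-like, 45.4 and 39.5 CPM in progenitor-like and 42.7 and 48.6 CPM in amacrine-like cells. Cdkn1a was highest in surface epithelium-like cells (235 CPM (control) and 244 CPM (mutant)), then in white blood-like and muscle-like cells, and stood at 90.4 and 90.0 CPM in endothelial-like cells. Within the surface epithelium it was concentrated in a cluster led by Krt13 and Krt6a, at 482 and 401 CPM, against 56.9 and 34.5 CPM in a cluster led by Krt14 and Col17a1.

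Within progenitor-like cells Cdkn1a varied with the cycle genes that lead each cluster. It stood at 67.1 CPM (control) and 75.3 CPM (mutant) in a cluster led by Ung, Cdc6 and Mcm3, at 90.1 and 72.6 CPM in one led by histone genes, and at 18.5 and 20.4 CPM in one led by Ube2c and Plk1, genes of mitosis. Both libraries thus had least Cdkn1a in the mitotic cluster. Cdkn1a and the other members were not used to form these clusters.

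Perp stood at 1702 CPM in control and 2064 CPM in mutant surface epithelium-like cells, 75.2-fold and 27.2-fold above RPE-like cells, which came second in both libraries. All other classes held at most 3.16 CPM of Perp. Phlda3 was likewise highest in surface epithelium-like cells, at 245 and 234 CPM, followed by mesenchyme or pericyte-like cells. Fas, the death receptor, was highest in endothelial-like cells, at 59.5 and 65.4 CPM, 6.64-fold and 4.04-fold above the next class. Pmaip1 was highest in white blood-like cells, at 27.5 and 19.1 CPM, 7.19-fold and 5.10-fold above endothelial-like cells.

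Other targets were highest among the neurons of the retina. Mdm2 was highest in photoreceptor-like cells (61.0 and 65.5 CPM) and next in amacrine-like cells (49.9 and 62.4 CPM), with overlapping intervals, and so was Trp53inp1 (57.4 and 57.8 CPM in photoreceptor-like cells). Bbc3 was highest in amacrine-like cells (34.4 and 30.5 CPM), followed by photoreceptor-like cells. Bbc3 was uneven within these classes, at 61.7 CPM (control) and 45.7 CPM (mutant) in the photoreceptor cluster led by Nr2e3 and Sag, rod genes, and at 11.3 and 11.1 CPM in the cluster led by Gem and Neurod4. Bax stood highest in amacrine-like cells (320.5 and 318 CPM), and Ccng1 in mesenchyme or pericyte-like and RPE-like cells, in the control at 24.2 and 23.6 CPM.

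Several genes of the death machinery were also strongest in blood or vessel cells. Casp8 was highest in white blood-like cells (80.3 CPM control, 85.3 CPM mutant) and endothelial-like cells (45.3 and 53.6 CPM), and lowest among classes other than red blood in the retinal neurons, at 0.259 and 0.554 CPM in amacrine-like cells. Bak1 was highest in the same 2 classes, at 47.2 and 55.9 CPM in white blood-like cells, with endothelial-like cells (51.2 CPM in the control) within their interval, and stood at 3.98 and 4.11 CPM in photoreceptor-like cells. Mcl1 was highest in white blood-like cells (369 and 441 CPM). Bcl2 and Bcl2l1, both pro-survival, were distributed differently. Bcl2 was highest in mesenchyme or pericyte-like (39.3 and 41.1 CPM) and progenitor-like cells (35.5 and 40.5 CPM) and low in photoreceptor-like cells (4.71 and 4.26 CPM), where Bcl2l1 stood at 101 and 104 CPM. Xiap was highest in endothelial-like cells (118 and 145 CPM) and Diablo in neurogenic-like cells (135 and 152 CPM). For genes with at least 5 CPM in the median class of the control, the highest class stood at a median of 2.64 times the median class for 9 targets and 2.09 times for 14 death genes.

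Some counts cannot be assigned to 1 gene with certainty, as Bax, Sesn2 and Diablo overlap another annotated gene on the same strand (Gm45808, Gm12981 and Gm49027). Casp9, Bcl2, Bid, Bad, Bak1 and Diablo overlap a gene on the opposite strand. Whether transcripts of the opposite strand entered their counts was not examined.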

How the data were processed

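Single-cell libraries of P0 eye cups were prepared with the 10x Genomics 3′ kit, and the authors aligned reads to mm10 and counted UMIs with Cell Ranger 7.1.0, per the labels (the matrix headers carry software version 3.1.0; the gene annotation is not given in the sources used here). The deposited values are raw UMI counts per gene and barcode. The control matrix held 14305 barcodes and 79017429 UMIs and the mutant matrix 12222 barcodes and 76272867 UMIs, with medians of 4201 and 4952 UMIs per barcode. Embryonic time points were not analysed here.

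Barcodes with under 200 genes or over 15% mitochondrial UMIs were removed (174 and 195), the limits of the study. The study's doublet limit, 2000 UMIs, was not applied, since 80.2% and 92.1% of barcodes exceed it. Doublets were instead removed by Scrublet score (scanpy 1.11.5) at the expected rate of 0.8% per 1000 barcodes (1637 control, 11.6%, and 1195 mutant, 9.94%), because its own threshold marked 0% and 5.48%. Cells were integrated and clustered in Seurat 5.3.0 under R 4.3.3 (2000 variable genes, 30 components, Louvain resolution 1, 37 clusters). Clustering did without 145 genes. These were the members, the lists of other p53 targets, regulators of p53, other death genes and stress responses, and the markers of RPE and melanocytes. Also left out were Xist, the Y-linked genes Ddx3y, Eif2s3y, Kdm5d and Uty, and Myrf, Tmem98, Sox10, Ermn and Upk3b. Genes of the cell cycle lists were not left out as lists. Clusters were named from marker lists by limits set with the clusters in view, and those that met no list stayed unnamed. A cluster that met the progenitor list but was led by neurogenic markers was also left unnamed (1065 control and 1145 mutant cells). So was one that met the photoreceptor list but shared leading genes with a shallower cluster of another class (111 and 103 cells). Unnamed cells numbered 3771 (control) and 2526 (mutant) in all.

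UMIs were summed per class and library and scaled to CPM, with exact Poisson intervals (scipy 1.17.1). Ratios are log2 with 1 CPM added and carry an exact conditional 95% interval, and the calculation was tested on simulated data. Because a class is a sum over cells of 1 library, less RNA per cell and fewer expressing cells cannot be told apart in it. A gene entered the ratios with at least 50 UMIs over both libraries and was counted past the fold at 1.5 times. Full values were to be given for Trp53, Cdkn1a, Mdm2, Bax and Ccng1 and for members past the fold with an interval apart from 0 in RPE-like or progenitor-like cells. Others with full values were chosen after their values were seen. The members and lists were chosen with earlier results of these data known.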

Additional observations from a re-analysis of the deposited data

Results flagged for a closer look

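Aen, Cycs and Mcl1 stood on opposite sides of 0 in RPE-like cells and in another class, with counting intervals apart from 0 in both, and were kept for a closer look. Aen had a log2 ratio of −0.194 in progenitor-like cells and 0.56 in RPE-like cells. Cycs had a ratio of −0.201 in progenitor-like cells and 0.18 in RPE-like cells. Mcl1 had a ratio of 0.261 in endothelial-like cells and −0.28 in RPE-like cells. The difference between the classes was not tested, since each class is a single sum per genotype. Thinning turned the Aen value in RPE-like cells to −1.17, on 13 UMIs. The Cycs ratio in RPE-like cells was −0.019 among Xist cells and −0.20 with at most 2000 UMIs per cell, and the Cycs ratio in Retinal progenitor-like cells was 0.40 with that limit, so its opposite signs depend on the setting.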

How the results depend on the processing

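In RPE-like cells the median of the p53 targets kept its sign in each of 16 alternatives (0.08 to 0.93). The limit of 2000 UMIs left no target with 50 UMIs and so gave no value. The count of targets past 1.5-fold fell from 2 to 1 on thinned cells, where Bax was the 1 target that could be counted. The list median on thinned cells is thus the Bax ratio alone. The count was also 1, Perp, with at least 200 UMIs per gene, where 2 targets (Perp and Bax) could be counted. It was 3 with 0.1 CPM added, at least 10 UMIs per gene, or scaling without mitochondrial, ribosomal protein and globin genes. The count of death genes past it, Casp8 alone, went from 1 to 0 because Casp8 missed the UMI minimum with at most 2000 UMIs per cell, in cells of 4000 to 16000 UMIs or with a Y-linked UMI and with at least 200 UMIs per gene, and because its ratio fell short with no doublet removal, 5 CPM added and a fold of 2. Of 8 members with a counting interval apart from 0 there, 4 turned their sign: Cdkn1a (−0.43) and Cycs (−0.019) among Xist cells, Ccng1 (−0.85) and Aen (−1.17) on thinned cells, and Cycs also (−0.20) with at most 2000 UMIs. Of the 15 whose interval crossed 0, 11 turned in at least 1 alternative, among them Casp8 (lowest −0.72), Phlda3 (−0.96) and Zmat3 (−0.30). In progenitor-like cells, the Xist cells (53 in the control) gave medians of −0.18 for targets and 0.40 for death genes, with 2 and 5 past 1.5-fold (30.8% of all genes) against 0 in all cells, and the cells with a Y-linked UMI gave 2 and 1 (8.69% of all genes). Of 10 with an interval apart from 0, 8 turned there, among Xist cells for Trp53inp1 (−0.43), Bcl2l11 (−0.18) and Bnip3l (−0.072), among cells with a Y-linked UMI for Mdm2 (−0.16) and Bcl2 (−0.092), on thinned cells for Mdm2 (−0.12), Zmat3 (−0.089) and Xiap (−0.012), and with at most 2000 UMIs for Cycs (0.40). The cause was not tested. No paired analysis was possible because each genotype is 1 library of pooled eye cups, and no replicate could be left out. Depth limits the RPE-like values: genes with fewer than 50 UMIs there were not counted, and turns of sign on thinned cells rest on few UMIs.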
